A study of Mus musculus with 24 samples.

Results

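The extraembryonic endoderm genes described here are 10 genes, Gata4, Gata6, Sox17, Foxa2, Dab2, Afp, Lama1, Col4a1, Col4a2 and Sparc, out of 22380 protein-coding genes of the GENCODE M1 annotation of the mouse genome (mm9). They were taken by name as regulators of primitive and parietal endoderm and as genes of the basement membrane, and their levels were compared between CCE cells and fetal head. Of the 10 genes, 9 passed the filter of the test across genes, which required a mean RPKM over 3 in CCE or FH (tags per kilobase of exon, scaled to the unique tags of the library), and Afp did not. The symbol Dab2 names 2 annotated genes, of which the shorter, ENSMUSG00000079102.2, lies inside the longer and held 0 tags in both tissues, so the values of Dab2 are those of ENSMUSG00000022150.9.

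Primitive endoderm is the epithelium that separates from the inner cell mass of the blastocyst, and it gives rise to visceral and parietal endoderm. Its cells are set up by GATA and SOX transcription factors, and parietal endoderm secretes a thick basement membrane, Reichert's membrane, made of laminin and type IV collagen. Visceral endoderm takes up and transports nutrients for the embryo and is known for endocytic receptors and secreted serum proteins.

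CCE cells are feeder-independent mouse embryonic stem cells of strain 129/SvEv, differentiated here by removal of LIF and treatment with 0.266 µM retinoic acid for 5 days. Fetal head (FH) was taken at 14.5 dpc from FVB/N mice and is a mixture of many tissues. Whether several animals were pooled is not stated. No undifferentiated CCE culture was analysed here, so the comparison is of 2 cell sources of different strain and not of a treatment with its control. RNA was depleted of ribosomal RNA with the RiboMinus kit and sequenced from 7 cDNA preparations, 4 of CCE (8 libraries) and 3 of FH (6 libraries), or with the Ribo-Zero kit, with 1 library per tissue.

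The 4 CCE preparations are technical replicates, and the FH preparations are not described as separate animals, so that p values measure the spread between preparations, which may be technical. FH2 hydrolysed had 2 rounds of depletion and the other preparations 1, and without FH2 hydrolysed 8 of the 9 genes tested below were still called between the tissues, all but Dab2. Each preparation was fragmented by RNA hydrolysis (4 preparations) or cDNA shearing (3 preparations) and sequenced at Vienna-IMP and at Nijmegen, and the tags of both locations were summed. The sheared and the hydrolysed preparation of CCE1, of CCE2 and of FH1 come from 1 RiboMinus RNA each, so p values between the tissues, which count them as separate, may be too small. With 1 mean per RNA (2 against 2, FH2 being hydrolysed only) all 9 genes tested were called lower in FH as well, a check chosen after seeing the data in which 6983 of 10306 genes were called, against 5638 over preparations. A RiboMinus library held 920424 to 2473448 unique tags, and the Ribo-Zero libraries held 28708715 in CCE and 48426051 in FH. In this bulk RNA, fewer expressing cells and less RNA per cell cannot be told apart. Pou5f1, a pluripotency gene that checks the labels, had a mean RPKM of 18 ± 2.51 (SD, n = 4) in CCE and 0 tags in the FH RiboMinus preparations and the FH Ribo-Zero library. The FH1 hydrolysed library of Vienna-IMP, which the study treats as a likely technical outlier, was kept, and all 9 genes tested were called between the tissues without it as well.

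All 9 genes tested had lower levels in FH than in CCE, and all 9 passed the test (limma, adjusted p under 0.05). Gata4, Gata6, Foxa2 and Lama1 passed the filter only through CCE, with FH means of 0, 1.14, 1.34 and 2.0. Their direction was fixed by the filter, and they are part of the counts and the median below. Over all 10306 genes tested, 34.8% were called lower and 19.9% higher in FH. The median difference of the 9 genes, FH minus CCE on log2(RPKM + 1), was -2.10, against -0.34 for all genes tested. For 8 of the 9 genes every CCE preparation lay above every FH preparation, which held for 35.9% of all genes tested. Dab2 overlapped between the tissues, as did Afp, which was not tested. The excess of lower over higher calls among all genes depended on scaling. Lower genes made up 63.5% of the calls with all unique tags as the scale, 40.4% with tags in protein-coding exons and 50% with median-ratio size factors, where the median difference was -0.34, 0.06 and -0.09. Relative to these medians the genes described here lay at -1.76, -1.93 and -1.79, and all 9 stayed lower in FH, with 9, 8 and 8 called.

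**Figure D1:**
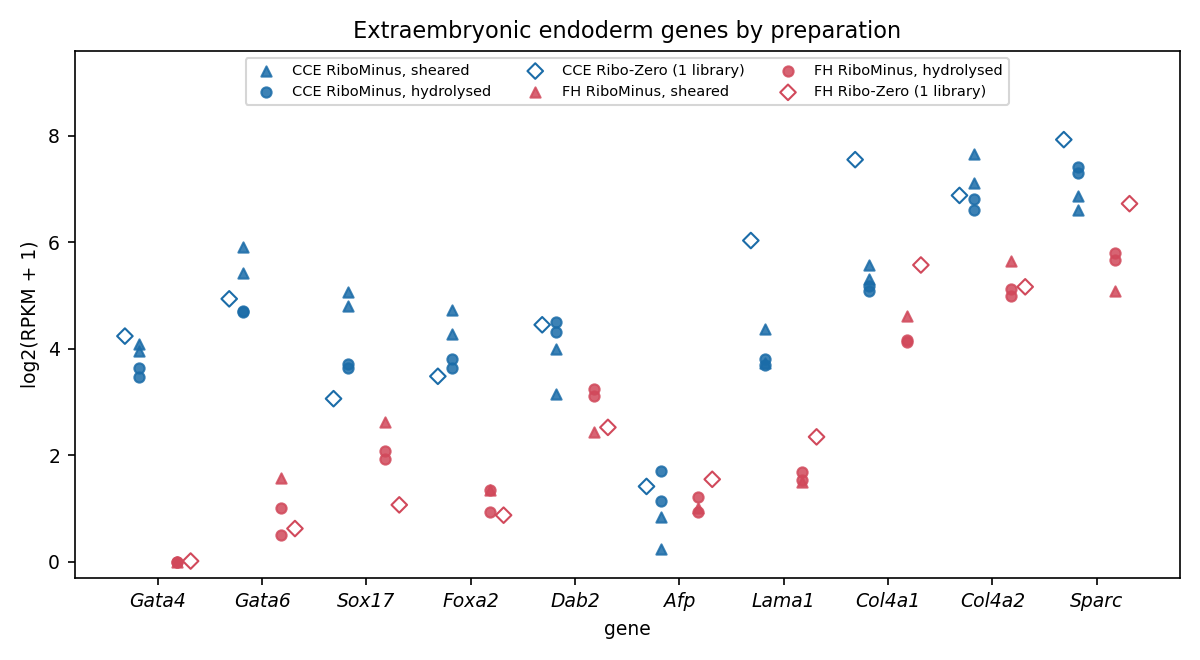
Levels of the 10 genes as log2(RPKM + 1), with CCE in blue and FH in red. Triangles are sheared and filled circles hydrolysed RiboMinus preparations (4 of CCE, 3 of FH), and open diamonds are the single Ribo-Zero libraries. CCE points lie above FH points for all genes except Dab2 and Afp among RiboMinus preparations, and the CCE Ribo-Zero diamonds of Lama1 and Col4a1 lie above all their RiboMinus points.

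In the RiboMinus fit Gata6, Gata4 and Foxa2 had the largest differences of the genes described here. In the Ribo-Zero libraries the ratio of CCE to FH was larger for Lama1 (15.8) than for Foxa2 (12.2). This order was reversed with each start position counted once. Lama1 then held 6466 positions in CCE and 1418 in FH, and Foxa2 held 499 and 78. Gata6, which directs cells of the inner cell mass to primitive endoderm, lies on chromosome 18 at 11052508 to 11085633 on the plus strand. Its RPKM was 41.9 and 59.0 in the sheared and 25.1 and 25 in the hydrolysed CCE preparations, and 1.99 in the sheared and 0.422 and 1.01 in the hydrolysed FH preparations. The groups did not overlap, and the difference of -4.15 (SE 0.36, limma adjusted p = 1.84e-05) ranked 26 from the lowest of 10306. The lincRNA 1010001N08Rik lies on the other strand and shares 58 exon bases with Gata6. Tags carry no strand, and this lincRNA held 36 tags in the pooled CCE and 2 in the pooled FH RiboMinus libraries, against 1499 and 31 for Gata6.

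Gata4, a GATA factor of primitive endoderm and of the heart, lies on chromosome 14 at 63817759 to 63890529 on the minus strand. Its RPKM was 16.1 and 14.5 in the sheared and 10.1 and 11.5 in the hydrolysed CCE preparations, and no FH RiboMinus preparation held a tag of it. With 651 tags in the pooled CCE libraries and a limit of 3 tags over the pooled FH libraries, Gata4 was at least 165-fold higher in CCE. Limma called it lower in FH (adjusted p = 1.06e-06), and the fitted difference of -3.79 (SE 0.19) depends on the pseudocount, since it became -7.02 with a pseudocount of 0.1. In the deeper FH Ribo-Zero library Gata4 held 2 tags, against 2008 in CCE, a ratio of 1694 with a 95% interval from counting error of 468 to 13994. Such intervals and limits cover counting error only, since tags with 1 start position may be copies of 1 molecule.

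Because GATA factors bind GATA-containing sequence, the windows from 250 bases before to 50 after each annotated gene start were searched on both strands for AGATAA and TGATAA (on the opposite strand TTATCT and TTATCA). A match was found for Gata4, Sox17 and Dab2, 3 of the 10 genes, and in 17.0% of 22375 such windows of protein-coding genes. Gata4 held 2 matches, which start 71 and 54 bases before the annotated start, Sox17 held 1 at 29 bases before, and Dab2 held 1 at 178 bases before and 1 at 15 bases after the start. With the merged exons cut into 10 equal segments, the first 2 of Dab2 and of Sox17 held 0 tags in pooled hydrolysed CCE libraries. In the CCE Ribo-Zero library they held 0 each for Dab2 and 1 each for Sox17. Use of these 2 annotated starts in CCE was thus not shown. The stretches below run 5′ to 3′ on the strand of the gene (mm9), with the matches in capitals, and a match is a description of letters and no measured binding site.
Gata4, chr14:63890553-63890625, minus strand: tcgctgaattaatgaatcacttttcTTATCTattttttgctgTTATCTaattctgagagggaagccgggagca
Sox17, chr1:4486493-4486548, minus strand: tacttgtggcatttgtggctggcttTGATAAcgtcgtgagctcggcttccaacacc
Dab2, chr15:6249585-6249640, plus strand: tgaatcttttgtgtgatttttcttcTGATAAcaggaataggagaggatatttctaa
Dab2, chr15:6249791-6249820, plus strand: attctctttggcTTATCTgctgtgcatttt

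Sox17 encodes an SRY-related factor of primitive and definitive endoderm that is also used by arterial endothelium, and it lies on chromosome 1 at 4481009 to 4486494. Its RPKM was 27.1 and 32.6 in the sheared and 11.5 and 12.2 in the hydrolysed CCE preparations, and 5.20 in the sheared and 2.82 and 3.23 in the hydrolysed FH preparations. The difference was -2.10 (SE 0.38, limma adjusted p = 0.00166), and the highest FH preparation stayed below the lowest CCE preparation. Tags were uneven along the merged exons. In pooled hydrolysed CCE libraries, the coding part had a density, on the RPKM scale, of 26.6, the annotated 5′ part 1.11 and the 3′ part 3.44.

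Foxa2, a forkhead factor of endoderm, node and floor plate, lies on chromosome 2 at 147868613 to 147872705. Its RPKM was 18.4 and 25.4 in the sheared and 13.0 and 11.5 in the hydrolysed CCE preparations, and 1.56, 0.909 and 1.56 in FH, with the second value from FH1 hydrolysed. The difference was -2.90 (SE 0.28, limma adjusted p = 3.46e-05), with no overlap between tissues. Markers of floor plate were low in CCE. Their summed RPKM over 8 genes was 5.59 to 10.3 in CCE and 24.8 to 41.8 in FH preparations, and 4 of the 4 tested were called higher in FH. Over all genes tested 19.9% were called higher. All of the 4 but Ntn1 (3.41 in CCE and 8.3 in FH) passed the filter only through FH, which fixed their direction. The part of floor plate cells in the FH value of Foxa2 was not tested.

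Other genes of the same families were counted as a list. Of the 8 other Gata, Sox F and Foxa genes 5 were tested, 1 was lower, 1 higher and 3 not called. Over all genes tested 34.8% were lower and 19.9% higher, and the next list is read against the same shares. The median of this list was 0.07 against -0.34 for all genes. Gata5 was lower in FH (-2.73, SE 0.22, limma adjusted p = 1.12e-05) with 253 tags in CCE and 2 in FH, and Sox18, an endothelial factor, was higher (2.04, adjusted p = 0.00270). Of 11 other endoderm transcription factors, a list that shares Gata5, Sox7, Foxa1 and Foxa3 with the one above, 4 were tested. Of these 2 were lower, 1 higher and 1 not called. Sall4, a zinc finger factor of stem cells and early endoderm, was lower in FH (-3.26, adjusted p = 1.74e-05), as was Gata5, and Eomes was higher (1.65, adjusted p = 9.48e-05). Gata5 and Sall4 passed the filter only through CCE, with FH means of 0.0471 and 0.321. Sox18 and Eomes passed only through FH, with CCE means of 0.326 and 1.18. The filter fixed the direction of these genes.

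Dab2 encodes an adaptor that sorts endocytic receptors such as megalin and is used for the polarity of primitive endoderm. The gene lies on chromosome 15 at 6249788 to 6390712. Its RPKM was 7.94 and 15 in the sheared and 19.0 and 21.6 in the hydrolysed CCE preparations, and 4.4 in the sheared and 8.55 and 7.66 in the hydrolysed FH preparations. The tissues overlapped, because sheared CCE1 lay below hydrolysed FH1, while within each fragmentation method CCE lay above FH. The difference was -1.06 (SE 0.34, limma adjusted p = 0.0273). This call was lost without CCE1 hydrolysed (adjusted p = 0.0664), CCE2 hydrolysed (0.0628), FH1 sheared (0.0895) or FH2 hydrolysed (0.0520), and with both other scalings (0.124 and 0.0579). In the Ribo-Zero libraries Dab2 was 4.4 times higher in CCE (95% interval 4.16 to 4.66).

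Afp encodes alpha-fetoprotein, the serum protein of visceral endoderm and fetal liver, and it lies on chromosome 5 at 90919740 to 90937933. It was near the limit of detection in both tissues, with 32 tags in the pooled CCE and 23 in the pooled FH RiboMinus libraries. Its RPKM was 0.803, 1.20, 0.177 and 2.28 in CCE1 sheared, CCE1 hydrolysed, CCE2 sheared and CCE2 hydrolysed, and 1.02, 0.904 and 1.33 in FH. The ranges overlapped and the exact permutation test gave p = 0.857 (n = 4 and 3, two-sided). The Ribo-Zero ratio of CCE to FH was 0.865 (95% interval from counting error 0.673 to 1.11). With 1 library per tissue this ratio cannot show whether the tissues differ.

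Of 20 genes of visceral endoderm transport and uptake 12 were tested, and 10 were lower in FH, 1 was higher and 1 was not called. Their median was -1.83, where 34.8% of all genes tested were lower and the median over all was -0.34. Most of those lower, Cubn and Lefty1 among them, passed the filter only through CCE, with FH means of 0 to 1.25. Their direction was fixed by the filter. With the other scalings 8 of 12 and 7 of 11 were lower and 2 were higher, with Bmp2 added. Cubn, an endocytic receptor of visceral endoderm and kidney, was 23.8 ± 7.64 RPKM (SD, n = 4) in CCE and 0.396 ± 0.189 (SD, n = 3) in FH, a difference of -4.11 (limma adjusted p = 3.88e-06). Lefty1, a secreted Nodal antagonist, was lower in FH by -3.27 (adjusted p = 2.59e-06). Ttr, a serum carrier that choroid plexus also makes in large amounts, was the gene higher in FH, at 143 ± 29.9 RPKM (SD, n = 3) against 9.13 ± 1.44 (SD, n = 4), where 3 of the 5 choroid plexus markers tested, Ttr among them, were higher and 2 lower. All of these markers but Ttr passed the filter through 1 tissue only, which fixed their direction.

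Among the 4 basement membrane genes of the 10, Lama1, Col4a1, Col4a2 and Sparc, Lama1 differed most between the tissues in both kits, and the smallest difference was that of Col4a1 in RiboMinus and of Sparc in Ribo-Zero libraries. Lama1, the laminin alpha chain of embryonic basement membranes, lies on chromosome 17 at 68046605 to 68171985. Its RPKM was 12.4 and 19.6 in the sheared and 13.0 and 12.0 in the hydrolysed CCE preparations, and 1.84, 2.23 and 1.92 in FH. The difference was -2.33 (SE 0.21, limma adjusted p = 2.05e-05), and the highest FH value was far below the lowest CCE value. Its partners in the laminin trimer, the beta chain Lamb1 and the gamma chain Lamc1, were also lower in FH, by -1.84 (adjusted p = 0.000394) and -2.13 (adjusted p = 2.23e-05).

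The ratio of Lama1 to Lamc1 in RPKM was 0.288, 0.267, 0.298 and 0.265 in the 4 CCE preparations, CCE1 before CCE2 and sheared before hydrolysed, and 0.169, 0.227 and 0.171 in FH. These plain ratios did not overlap between the tissues. On the log2(RPKM + 1) scale used for the test they did overlap, and the tissues differed by 0.19 (exact two-sided permutation test, p = 0.171, adjusted p = 0.257 over 3 planned ratios, n = 4 and 3). With coding exons alone the difference was 0.03. In the Ribo-Zero libraries the ratio was 0.904 in CCE and 0.246 in FH. Lama1 had a level near that of Lamc1 in the CCE Ribo-Zero library and a level far below it in every RiboMinus preparation of CCE. The third planned ratio, that of Gata6 to Gata4, has 0 tags of Gata4 as its denominator in the FH RiboMinus preparations. In FH its permutation test therefore set Gata6 against the added 1 RPKM alone and says nothing of the ratio, and its p of 0.40 is used only in the adjustment over the 3 ratios.

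Among 10 other laminin chains measured, 7 were tested, 4 were lower and 2 higher in FH, where 34.8% of all genes tested were lower and 19.9% higher. Lama5 was lower (-2.83, adjusted p = 0.000662), whereas Lama4, a chain of vessel and muscle basement membranes, was higher (2.56, adjusted p = 2.59e-06). The median of the list was -1.84, against -0.34 over all genes.

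Col4a1 and Col4a2 encode the alpha 1 and alpha 2 chains of type IV collagen, which join in a trimer of 2 alpha 1 chains and 1 alpha 2 chain. The genes lie head to head on chromosome 8, Col4a1 at 11198423 to 11312826 on the minus strand and Col4a2 at 11312805 to 11449287 on the plus strand. Their annotated starts overlap by 22 bases, printed in capitals on the plus strand because both transcripts leave from here in opposite directions.
Col4a1 and Col4a2 shared start, chr8:11312801-11312830: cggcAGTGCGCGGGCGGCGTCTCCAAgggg
The 300 bases around this overlap (11312666 to 11312965) had a GC content of 74.0% and held 37 CpG and no TATAAA on either strand, a motif found in 13.4% of the windows of all protein-coding genes. A CCAAT box and a GC box (GGGCGG) were found in the windows of both genes, against 37.9% and 43.4% of all windows. These windows overlap, and the only GC box of Col4a1 is also 1 of the 3 of Col4a2, inside the 22 bases.

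Col4a1 had an RPKM of 39.0 and 46.7 in the sheared and 35.2 and 33.2 in the hydrolysed CCE preparations, and 23.5 in the sheared and 16.6 and 17.0 in the hydrolysed FH preparations. It was lower in FH by -0.99 (SE 0.20, limma adjusted p = 0.00289), the smallest difference of the 9. Col4a2 had an RPKM of 137 and 202 in the sheared and 112 and 96.9 in the hydrolysed CCE preparations, and 49.5 in the sheared and 30.8 and 34.1 in the hydrolysed FH preparations. It was lower in FH by -1.79 (SE 0.28, limma adjusted p = 0.000748). For both genes the tissues did not overlap.

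In RiboMinus libraries Col4a2 exceeded Col4a1 in every preparation, although the trimer holds more alpha 1 chains. The ratio of Col4a2 to Col4a1 was 3.51, 3.20, 4.32 and 2.92 in CCE1 sheared, CCE1 hydrolysed, CCE2 sheared and CCE2 hydrolysed, and 2.10, 1.85 and 2.00 in FH. The tissues did not overlap and differed by 0.81 on the log2 scale, with an exact two-sided permutation p of 0.0571, the smallest that 4 against 3 preparations allow (adjusted p = 0.171 over the 3 planned ratios). In the Ribo-Zero libraries the order was the opposite, with ratios of 0.624 in CCE and 0.747 in FH. Kit, RNA, read length and sequencing location all differ between the RiboMinus and Ribo-Zero libraries, so their parts cannot be told apart.

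**Figure D2:**
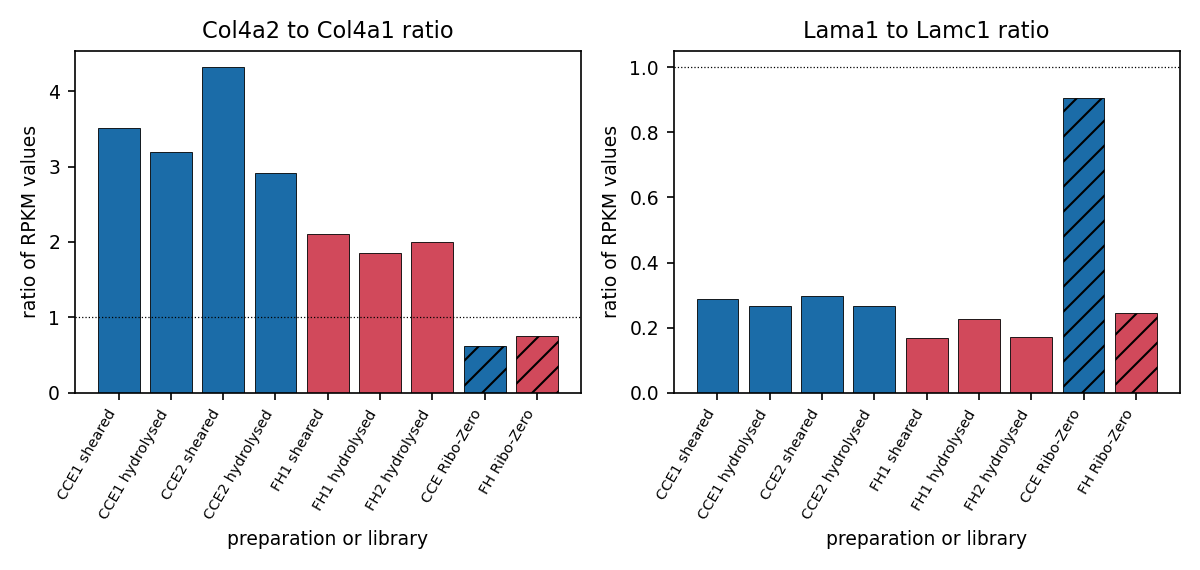
Ratios of RPKM values in each RiboMinus preparation (plain bars) and Ribo-Zero library (hatched bars) of CCE (blue) and FH (red), with 1 as a dotted line. The Col4a2 to Col4a1 ratio is 1.85 to 4.32 in RiboMinus preparations and below 1 in both Ribo-Zero libraries, and the Lama1 to Lamc1 ratio is 0.904 in the CCE Ribo-Zero library.

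In CCE, Col4a1 and Lama1 differed most between the kits. Compared with the mean of hydrolysed RiboMinus preparations, the Ribo-Zero RPKM of Col4a1 was 5.47 times higher in CCE (187, with 36579 tags) and 2.78 times in FH (46.7), whereas Col4a2 was 1.11 times (117) and 1.08 times (34.9). Lama1 was 5.15 times higher in CCE (64.6) and 1.97 times in FH (4.09). The other genes tested lay between 0.620 (Sox17) and 1.65 (Gata4) in CCE, and in FH between 0.364 (Sox17) and 2.00 (Sparc), with no ratio for Gata4. Of the exon positions of Col4a1 73.5% can hold a 36-nt tag that does not cross a junction and 63.4% a 51-nt tag, and 74.6% and 64.4% of those of Col4a2, so the longer tags of Ribo-Zero libraries had fewer positions on both genes. Along the exon chain of Col4a1, cut into 10 equal segments from 5′ to 3′, the Ribo-Zero density on the RPKM scale was 102 to 253 and exceeded that of pooled hydrolysed CCE libraries, 15.9 to 81.5, in every segment.

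**Figure D3:**
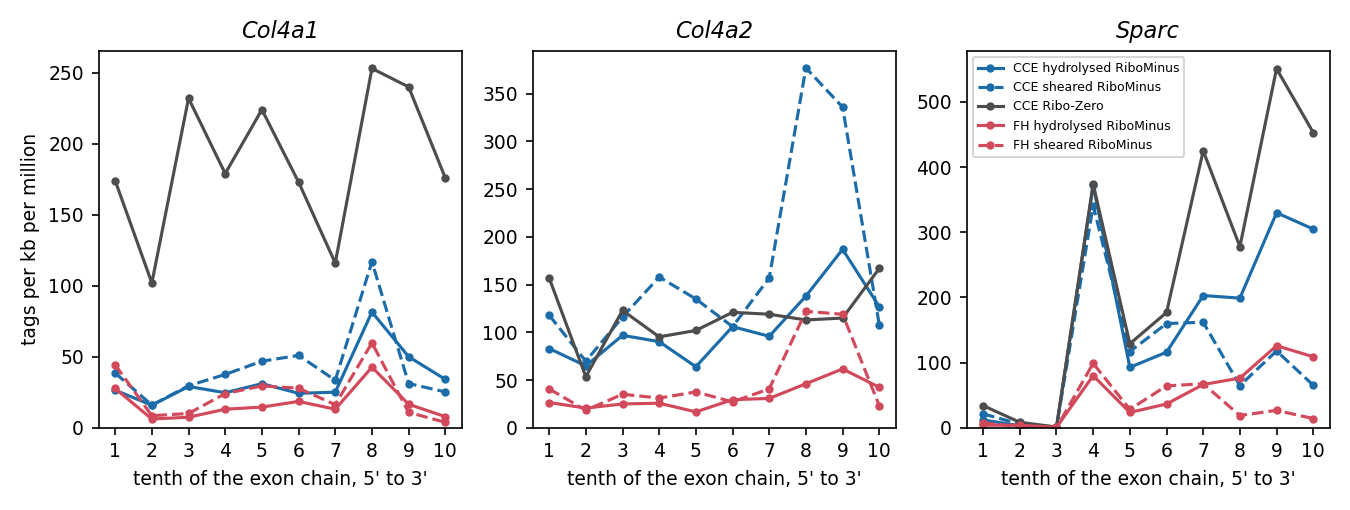
Tag density on the RPKM scale in 10 equal segments of the merged exons of Col4a1, Col4a2 and Sparc, for pooled CCE (blue) and FH (red) RiboMinus libraries, hydrolysed (solid) or sheared (dashed), and for the CCE Ribo-Zero library (grey). The Ribo-Zero line of Col4a1 lies above the others in all segments, and the sheared lines of Sparc fall below the hydrolysed lines toward the 3′ end.

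Sparc encodes a secreted protein that binds type IV collagen and calcium and is made in large amounts by parietal endoderm, bone and vessels. It lies on chromosome 11 at 55208002 to 55233582. Its RPKM was 96.6 and 116 in the sheared and 158 and 169 in the hydrolysed CCE preparations, and 32.9 in the sheared and 49.9 and 55.0 in the hydrolysed FH preparations. The difference was -1.53 (SE 0.27, limma adjusted p = 0.00129), with no overlap. Osteoblast markers summed over 8 genes to 144 to 181 in FH and 13.3 to 33.4 in CCE. Of the 5 tested 4 were called higher in FH, where 19.9% of all genes tested were called higher. The FH sum was mostly Col1a1 at 124 (12.7 in CCE), which is also in the smooth muscle and fibroblast list. Ibsp, Sp7 and Runx2 passed the filter only through FH, with CCE means of 0.0303, 0.0792 and 0.3. Alpl was not called, at 8.04 in FH and 8.31 in CCE, and at 6.53 and 17.0 in the Ribo-Zero libraries. Endothelial markers summed to 107 to 150 in FH and 6.29 to 9.14 in CCE, with 7 of the 7 tested higher in FH. All 7 passed the filter only through FH, with CCE means of 0.326 to 1.93, so their direction was fixed by it. The part of bone and vessels in the FH levels of Sparc, Col4a1, Col4a2 and Sox17 was not tested.

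Ordered by mean RPKM in CCE RiboMinus preparations, Col4a2 (137 ± 46.4) and Sparc (135 ± 34.3) were highest, then Col4a1 (38.5 ± 6.00) and Gata6 (37.8 ± 16.3). They were followed by Sox17 (20.9 ± 10.6), Foxa2 (17.1 ± 6.29), Dab2 (15.9 ± 5.95), Lama1 (14.3 ± 3.58), Gata4 (13.1 ± 2.72) and Afp (1.11 ± 0.883; SD, n = 4 each). Only the steps from Sparc to Col4a1 and from Gata4 to Afp were without overlap between the preparations of neighbours. In FH RiboMinus preparations the order was Sparc, Col4a2, Col4a1, Dab2, Sox17, Lama1, Foxa2, Gata6, Afp and Gata4, from 45.9 ± 11.6 (SD, n = 3) to 0. Per exon position that a 36-nt tag can reach, the CCE order changed only in that Lama1 moved from rank 8 to 6, ahead of Foxa2 and Dab2. The single CCE Ribo-Zero library had another order, from Sparc (243) to Col4a1 (187), Col4a2 (117), Lama1 (64.6) and Gata6 (29.7). Then came Dab2 (20.9), Gata4 (17.9), Foxa2 (10.2), Sox17 (7.37) and Afp (1.67).

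In the Ribo-Zero libraries, which came from a biological replicate of the RNA, the same 9 genes were more than 2 times higher in CCE, the lowest ratio being that of Sparc at 2.32 (95% interval 2.27 to 2.36). Of 10057 genes with an RPKM over 3 in either Ribo-Zero library, 32.9% were more than 2 times higher in CCE. Gata6 was 54.6 times higher (44.0 to 68.7), Foxa2 12.2 times (9.82 to 15.2), Lama1 15.8 times (15.1 to 16.6; 9.37 times with each start position counted once) and Sox17 6.70 times (5.65 to 7.98). Col4a1 was 4.00 times (3.92 to 4.08) and Col4a2 3.34 times (3.26 to 3.41) higher. With 1 library per tissue these ratios have no replicate check.

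**Figure D4:**
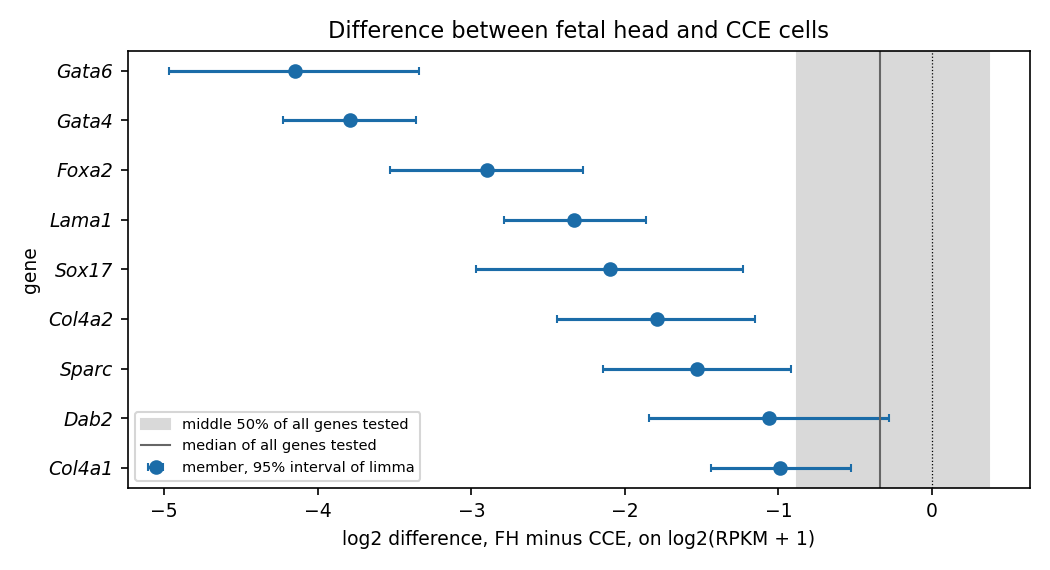
Difference between FH and CCE on log2(RPKM + 1) for the 9 genes tested, with 95% intervals of the limma fit. The grey band holds the middle 50% of all 10306 genes tested and the vertical line their median of -0.34, and the genes run from -4.15 (Gata6) to -0.99 (Col4a1).

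Other genes of matrix assembly and adhesion were counted from lists, to be read against the 34.8% of all genes tested that were lower in FH, the 19.9% that were higher and the median of -0.34. Of 12 parietal endoderm genes, all tested, 7 were lower, 2 higher and 3 not called, with a median of -1.56. The largest differences among those called were those of Ctsl, a lysosomal protease (-3.17, adjusted p = 0.0001), Plat, tissue plasminogen activator (-3.02, adjusted p = 1.48e-06), and Pga5, a pepsinogen with 94 tags in CCE and 0 in FH (adjusted p = 4.59e-06). The genes higher in FH were named after their values were seen. They were Pdgfra, a PDGF receptor also counted in the list of FGF and PDGF genes (1.39, adjusted p = 0.000245), and Snai1, a transcription factor of epithelial to mesenchymal transition (1.13, adjusted p = 0.0378). For Snai1 the preparations overlapped, with 12.3 the highest in CCE and 11.4 the lowest in FH. Its Ribo-Zero RPKM was 2.28 in CCE and 1.92 in FH. Thbd, Pth1r and Fst were not called, and Pth1r was called higher with the other scalings (1.17 and 1.05). In the Ribo-Zero libraries Pth1r was 13.1 in CCE and 12.3 in FH. Of 10 genes of collagen IV assembly and crosslinking 8 were lower and 2 not called, with a median of -0.98, and 5 or 6 were lower with the other scalings. Loxl2, a lysyl oxidase that crosslinks collagen IV, was 99.9 ± 19.8 RPKM (SD, n = 4) in CCE and 16.3 ± 2.05 (SD, n = 3) in FH, and the procollagen lysine hydroxylase Plod2 (-1.58, adjusted p = 0.00634) and the collagen chaperone Serpinh1 (-1.50, adjusted p = 0.00919) were lower as well.

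Of 9 receptors and adaptors tested 6 were lower and 3 not called (median -1.36), where 34.8% of all genes were lower. With exon scaling 5 were lower, without Itga6 (adjusted p = 0.108), and with median-ratio size factors 6, and Lrp1 was called higher with both (1.11 and 0.99). Itga3 and Itgb1, which together form a laminin-binding integrin, differed by -3.32 (adjusted p = 3.78e-05) and -2.23 (adjusted p = 0.000822), and Dag1, the laminin receptor dystroglycan, by -1.97 (adjusted p = 1.63e-05). Of 10 other basement membrane proteins 5 were lower, 1 higher and 4 not called (median -0.70), which became 3 lower and 3 higher with either other scaling. Nid2, a nidogen that links laminin to collagen IV, differed by -2.20 (adjusted p = 0.000682) and Col18a1 by -1.95 (adjusted p = 0.000415), while Egfl6 was higher in FH (2.55, adjusted p = 9.7e-06). Of 4 other collagen IV chains only Col4a5 was tested and was lower (-2.36, adjusted p = 4.84e-05).

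The genes of FGF and PDGF signalling, which direct the choice between epiblast and primitive endoderm, were counted as well. Of 9 genes of FGF and PDGF signalling tested, 5 were higher, 2 lower and 2 not called, where 19.9% of all genes were higher and 34.8% lower. The median was 0.44, against -0.34 over all genes, and 1 was lower with either other scaling. Fgfr3 (2.06, adjusted p = 0.000355) and Fgfr4 (1.82, adjusted p = 0.000225) were higher in FH, and Dusp6, a phosphatase induced by FGF signals, was lower (-2.23, adjusted p = 0.000262).

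Markers of other cell types moved with the tissues as well. Their counts are read against the 34.8% of all genes tested that were lower in FH and the 19.9% that were higher. Of 8 pluripotency genes 5 were tested and all 5 were called lower in FH, against 34.8% of all genes tested. All 5 passed the filter only through CCE, with FH means of 0 to 0.922, so their direction was fixed by it. The list had a summed RPKM of 41.0 to 53.3 in CCE preparations and 1.05 to 1.14 in FH. Smooth muscle and fibroblast genes summed to 2162 to 2582 in CCE and 402 to 474 in FH, although 6 of the 9 tested were higher in FH and 3 lower. In CCE this sum was mostly Tagln at 1392 ± 116 and Acta2 at 895 ± 99.5 (SD, n = 4), 2 contractile genes, while the CCE Ribo-Zero library had 76.6 for Tagln and 38.0 for Acta2. Of those tested, Col1a2 and Lum passed the filter only through FH, at 1.39 and 0.235 in CCE. Cnn1 passed only through CCE, at 0.688 in FH. The filter fixed these directions. Of 8 trophoblast genes only Hand1 was tested and was called lower in FH, at 3.14 in CCE and 0 in FH. It passed the filter only through CCE, so its direction was fixed by the filter. Among untested genes with tags, Elf5 was higher in FH and Cdx2, Krt7 and Ascl2 were lower. The list summed to 4.49 to 9.10 in CCE and 0.839 to 0.959 in FH. Tpbpa, Gcm1 and Prl3d1 held 0 tags in CCE preparations. Gut and liver genes summed to 9.25 to 12.3 in CCE, and to 114 to 172 in FH. Ttr, which choroid plexus also makes, made up most of the sum in both tissues, with means of 9.13 and 143, and of the 8 genes it alone passed the filter and was tested. The other 7 genes held 2 to 24 tags each over the CCE preparations and 0 to 39 over those of FH, where Cdx2 and Pdx1 held 0. Of 5 cardiac genes tested 2 were lower and 2 higher in FH. Each of those called passed the filter through 1 tissue only, so its direction was fixed by it. The cardiac list summed to 33.1 to 39.6 in CCE and 33.1 to 47.0 in FH. These sums came from different genes, mostly Hand2 in CCE (25.8, against 2.13 in FH) and Myl4 in FH (31.2, against 0.889 in CCE). For neuronal genes, 6 of 6 tested were higher in FH (sums of 37.8 to 46.5 against 382 to 648). Among them Dcx, Syt1 and Elavl3 passed the filter only through FH, with CCE means of 0.0407, 0.922 and 0.118. Which cells of the CCE culture carry the endoderm genes was not tested.

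The levels of most of the 10 genes differed between fragmentation methods. With tissue in the model, 7 of the 9 tested differed between sheared and hydrolysed preparations, against 46.0% of all genes tested. Higher in sheared were 5, Sox17 by 1.00 (SE 0.16, limma adjusted p = 0.00141), Gata6 by 0.91 (SE 0.17, adjusted p = 0.00271), Col4a2 by 0.64 (adjusted p = 0.00807), Foxa2 by 0.55 (adjusted p = 0.0354) and Col4a1 by 0.37 (adjusted p = 0.0248), and 20.3% of all genes were called in this direction. Lower in sheared were Dab2 by -0.80 (SE 0.19, adjusted p = 0.00830) and Sparc by -0.64 (SE 0.12, adjusted p = 0.00264), a direction called for 25.7% of all genes. With median-ratio size factors the calls over all genes were 1980 lower and 2766 higher in sheared, against 2650 and 2092 here. Gata4 differed by 0.28 (95% interval -0.05 to 0.61) and Lama1 by 0.13 (-0.26 to 0.52), and neither passed the test.

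Both methods were applied to the same RiboMinus RNA of CCE1, CCE2 and FH1, so these preparations form 3 pairs and are not independent. The pairs take the preparation numbers as given, which may be crossed for the hydrolysed libraries of 1 location. Within the pairs, Gata6, Sox17, Foxa2, Col4a1 and Col4a2 were higher in the sheared preparation in 3 of 3, and Dab2 and Sparc were lower in 3 of 3. With the RNA as a replicate block, a fit chosen after seeing the data that leaves 2 residual degrees of freedom, 6 of the 9 genes were called, against 33.7% of all genes tested. Col4a1 was the gene no longer called, with the same difference of 0.37 (adjusted p = 0.0956), while Foxa2 differed by 0.66 (adjusted p = 0.0281).

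In fits without this block, Foxa2 and Col4a1 passed the threshold in some and not in others, with the same direction throughout. With the libraries of a single location 3 of the 9 genes were called. They were Gata6, Sox17 and Sparc at Vienna-IMP and Gata6, Sox17 and Col4a2 at Nijmegen. With scaling to protein-coding exons 5 were called, where 5261 genes were called over all, against 4742 in the main fit. With crossed numbers, that is with the numbers 1 and 2 of the hydrolysed Nijmegen libraries exchanged, 5 were called as well. For single locations and crossed numbers the count over all genes is not given, so these counts have no background. Col4a1 was not called without CCE1 hydrolysed, CCE2 sheared, CCE2 hydrolysed, FH1 sheared, FH1 hydrolysed or FH2 hydrolysed (0.32 to 0.41, adjusted p = 0.0516 to 0.138), without the Vienna-IMP library of FH1 hydrolysed (0.42, adjusted p = 0.0702), with exon scaling (0.31, adjusted p = 0.0535) or with crossed numbers (0.37, adjusted p = 0.0960). Foxa2 was not called without CCE1 hydrolysed, CCE2 sheared, CCE2 hydrolysed or FH1 hydrolysed (0.38 to 0.53, adjusted p = 0.0818 to 0.130), with no filter on low genes (0.55, adjusted p = 0.0622), with exon scaling (0.52, adjusted p = 0.0554) or with crossed numbers (0.55, adjusted p = 0.0518). Dab2 was not called without FH1 sheared (-0.83, adjusted p = 0.0524), and Sparc with each start position counted once (-0.15, adjusted p = 0.248). Lama1, which was not called in any of these fits, was -0.01 with Vienna-IMP libraries and -0.06 without CCE2 sheared.

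The difference of Sparc lay in its 3′ part. In pooled CCE libraries its coding exons had a density on the RPKM scale of 277 after hydrolysis and 285 after shearing, while its 3′ UTR had 272 and 84.9. With coding exons alone the Sparc difference turned to 0.18 (adjusted p = 0.379). In Gata4 both parts moved, with coding densities of 9.08 after hydrolysis and 24.7 after shearing and 3′ UTR densities of 15.1 and 10.4. With coding exons alone Gata4 was called higher in sheared preparations (0.81, limma adjusted p = 0.0393). In Gata6 the 3′ UTR held 17.4 and 10.2 and the coding part 32.3 and 79.9.

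The GC content of the parts moved with these differences. The exon chain of each gene was cut into 10 equal segments, and 70 of 100 segments held at least 10 tags in both the sheared and the hydrolysed CCE pool. Across these, the log2 ratio of sheared to hydrolysed density had a Pearson r of 0.839 and a Spearman rho of 0.863 with GC content, which ran from 39.6% to 75%. All 27 segments with a GC content of at least 60% had a ratio above 1, and 12 of the 13 segments under 50% had a ratio below 1. These segments share libraries and depth and are not independent, so no p is given. Across the 9 genes as wholes r was 0.636 and rho 0.30, and across all 10306 genes tested r was 0.686 and rho 0.711. Col4a2 (60.4% GC), Gata4 (57.3%) and Col4a1 (57.0%) were the richest in GC over their exons and Dab2 (43.8%) the poorest of these genes.

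**Figure D5:**
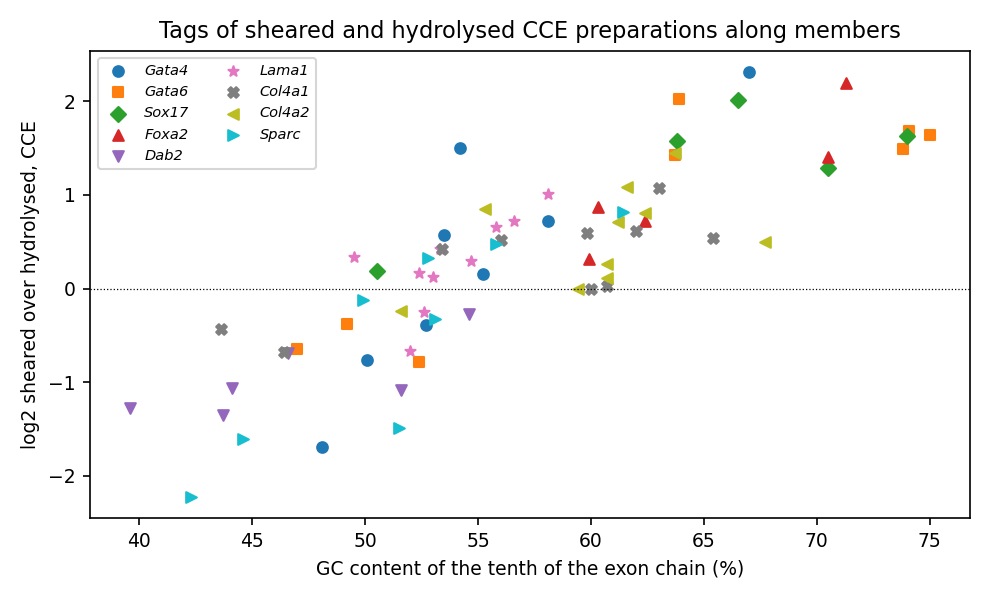
Log2 ratio of tag density in pooled sheared over pooled hydrolysed CCE libraries against GC content, for the 70 segments of the merged exons that held at least 10 tags in both pools, with a colour and marker for each gene. GC-rich segments of Gata6, Sox17 and Foxa2 lie above 0 and GC-poor segments of Sparc and Dab2 below it (Pearson r = 0.839).

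Levels were also compared between the sequencing locations. In pooled CCE libraries Col4a2 had an RPKM of 133 at Vienna-IMP and 133 at Nijmegen, Sparc 138 and 138, and Col4a1 38.3 and 37.5. Among the 9 genes tested the larger gaps in CCE were in Sox17, at 16.4 and 23.6, and Gata6, at 31.6 and 41.3. In pooled FH libraries Sox17 had 2.34 at Vienna-IMP and 4.7 at Nijmegen. With the libraries of Vienna-IMP alone and of Nijmegen alone, all 9 genes were called lower in FH. The ratio of Gata6 to Gata4 was 2.60 and 4.08 in sheared and 2.48 and 2.17 in hydrolysed CCE preparations.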

How the data were processed

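Per the labels and the submitters' processing notes, RiboMinus (36 nt) and Ribo-Zero (51 nt) reads were aligned with Bowtie to mm9, and the deposited files list the start and end coordinates of unique tags, with no count per gene. From these, tag midpoints in the merged exons of each GENCODE M1 protein-coding gene were counted here, without strand, and scaled to RPKM. Tags of both locations were summed per preparation. Tissues were compared with limma (version 3.58.1, trended variance, Benjamini-Hochberg adjustment) on log2(RPKM + 1) where the mean of CCE or of FH exceeded an RPKM of 3, and genes were called at an adjusted p under 0.05. Fragmentation was tested with tissue as a term. The script was checked on simulated data.

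The fragmentation method was taken from its own label, since the protocol text describes hydrolysis for every RiboMinus sample. Genes and lists were chosen with earlier results of these data known. Every one of the 10 genes is named, and of each list at most the 3 called genes with the largest difference, plus partner chains of Lama1, overlapping genes and markers singled out in a sentence. Further list genes that went the other way, were not called or changed their call with scaling were named after their values were seen. A gene that this rule names in 1 list is not reported here. Of the list names, Lamb1-1 and Map2 matched no gene. The alternatives were other pseudocounts, filters, scalings, exon sets, covariates, locations and left-out preparations. Leaving out the Vienna-IMP library of FH1 hydrolysed, the RNA as a replicate block and 1 mean per RNA were chosen after seeing the data. A further 8 samples were not analysed here. Promoter sequence was read from the NCBIM37 (mm9) genome.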

Additional observations from a re-analysis of the deposited data

Results flagged for a closer look

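In 29 groups of 4 to 10 samples the highest and lowest values of the 10 genes were compared with the rest of their group, a test that chance passes in about 1 of 20 groups. Lama1 in CCE2 sheared stood apart, at 19.6 RPKM against 13.0 in the nearest and 12.0 in the lowest of the other CCE preparations. The gap was 0.868 of the range of the group. Without this preparation Lama1 was still called lower in FH. The hydrolysed CCE preparations sum libraries of Vienna-IMP and Nijmegen that differed, at 14.8 and 10.1 in CCE1 and 8.75 and 14.6 in CCE2. The comparison was not repeated with crossed numbers.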

How the results depend on the processing

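Between the tissues, all 9 genes stayed lower in FH under each of 24 alternatives, and 8 or 9 were called, also when each preparation was left out (8 to 9). In the main fit the filter fixed this direction for Gata4, Gata6, Foxa2 and Lama1. Only Dab2 lost its call, under 6 alternatives, with differences of -0.77 with scaling to protein-coding exons to -1.15 without FH2 hydrolysed. The number of genes called among all tested ranged from 4029 with Nijmegen libraries to 7926 with hydrolysed preparations, against 5638. Across tissues, samples with 1 preparation number share only the number. Hydrolysed preparations 1 and 2 deviated with r = -0.147 between tissues over 10306 genes. Within a tissue the number is taken to mark 1 RNA. The numbers of hydrolysed libraries may be crossed at 1 location, which was not resolved. Hydrolysed CCE1 and CCE2 had a Lama1 RPKM of 14.8 and 8.75 at Vienna-IMP, and of 10.1 and 14.6 at Nijmegen. With crossed numbers all 9 genes described here were still called between the tissues. With the preparation number as a replicate block 5104 genes and all 9 genes described here were called, and with fragmentation as a further covariate 7501 and 9. With 1 mean per RNA 6983 and 9 were called. Between fragmentation methods, 3 of the 9 genes were called with Vienna-IMP libraries and 3 with Nijmegen libraries, against 7. The number was 5 to 7 when a preparation was left out, 5 with exon scaling or crossed numbers and 6 with the RNA as a replicate block. Of these alternatives only exon scaling and the RNA block have a number over all genes given above. Sparc turned to 0.18 with coding exons, where its 3′ UTR is not counted. The difference in the log2 ratio of Col4a2 to Col4a1 was 0.70 to 0.89 when a preparation was left out and that of Lama1 to Lamc1 0.14 to 0.30. In all, 9 of 30 Ribo-Zero ratios moved beyond their counting interval, 7 of them with each start position counted once. Depth limits Gata4, Afp, Gata6 and Foxa2 in FH, each with 31 tags or fewer in the pooled RiboMinus libraries, and 4 against 3 preparations cannot give an exact permutation p under 0.0571.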
